A study of Caenorhabditis elegans with 6 samples.

Results

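Astacins are zinc metalloproteases that Caenorhabditis elegans carries as a large gene family, most of whose members are named nas, for nematode astacin. The genes examined here were those whose symbol in the array's annotation was nas followed by a number, together with hch-1, the hatching enzyme gene that counts as nas-34. Of 38 RefSeq genes that match this rule, 34 had a probe set assigned to them alone, read by 37 probe sets in all, out of 17118 genes and 22548 probe sets tested. A probe set for nas-2 is assigned to a second gene as well and was not used, and nas-3, nas-23 and the pseudogene nas-40 had none of their own here. Where a gene had several probe sets, it was represented by the brightest, judged by the mean of all 6 arrays.

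Astacins are made as inactive precursors with a signal peptide and a prodomain, and most worm members carry further domains behind the catalytic one. In the worm, known roles lie at the body's outer surfaces: NAS-36 and NAS-37 are needed to shed the old cuticle at a moult, HCH-1 to leave the eggshell, and DPY-31, an astacin under another name, to trim the cuticle collagen SQT-3. Other members are expressed in the pharynx and gut, where a digestive role has been proposed, and NAS-39 belongs with the tolloid and BMP1 proteases that process extracellular matrix and growth factor regulators in other animals. By the established grouping on domain layout, nas-1 to nas-5 (I) have little beyond the catalytic domain, nas-6 to nas-15 (II) carry ShK-type cysteine-rich domains, nas-16 to nas-30 (III) EGF-like and CUB domains, nas-31 and nas-32 (IV) a mixture of these, nas-33 to nas-38 with hch-1 (V) thrombospondin type 1 repeats, and nas-39 (VI) repeated CUB and EGF-like domains.

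The space condition was worms of strain CC1 kept on the International Space Station through as many as 10 generations, as an asynchronous population, in the axenic liquid medium CeMM with automatic passage about every month. The ground control was CC1 worms in CeMM passaged in step with the flight worms. Each group had 3 Affymetrix arrays, labelled as technical replicates, of total RNA from whole worms, and spaceflight as applied here joined microgravity with space radiation. The labels give neither the number of cultures nor the number of RNA extracts, so the p-values reflect array-to-array spread alone and may capture technical variation. In such RNA, fewer cells of a type and less RNA per cell cannot be told apart.

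Median intensity was 111.9 to 119.3 on space arrays and 102.5 to 128.1 on ground arrays, and within a group the arrays correlated at 0.960 to 0.976 (log2 scale). The controls for sequences that a worm lacks, 8 probe sets from yeast genes and a bacterial gene, read 0.562 to 86.7, with a median of 6.48. Bacterial poly-A control transcripts differed between the groups: the 3' probe set for dap read 10274 to 11024 on space arrays and 17643 to 21904 on ground arrays, and lys read 2032 to 2925 on space arrays and 6010 to 6818 on ground arrays. The labels do not say how these were added. Actin's 5' probe set, as a log2 ratio to its 3' probe set, stood at -3.26 to -2.94 on space arrays and -4.30 to -3.59 on ground arrays. Their part in the results below was not tested, beyond the values given after scaling to the poly-A controls.

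Of the 34 astacin genes, 1 rose and 2 fell on space arrays: nas-24 rose 3.15-fold, nas-9 fell 4.23-fold and nas-5 fell 2.30-fold. A gene rose or fell if its adjusted p, from limma with Benjamini-Hochberg adjustment over the 22548 probe sets, was under 0.05 and its change was at least 2-fold on the scale log2(intensity + 16). The share of members that rose was 2.94%, against 5.34% of all genes, and the share that fell was 5.88%, against 2.42% of all genes. The median log2 fold change, space minus ground, was -0.13 over the 34 members and -0.02 over all genes, with members between -2.08 and 1.66. All 3 space arrays lay below all 3 ground arrays in 9 members (26.5%, against 13.8% of all genes) and above them in 2 members (5.88%, against 17.6% of all genes).

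**Figure D1:**
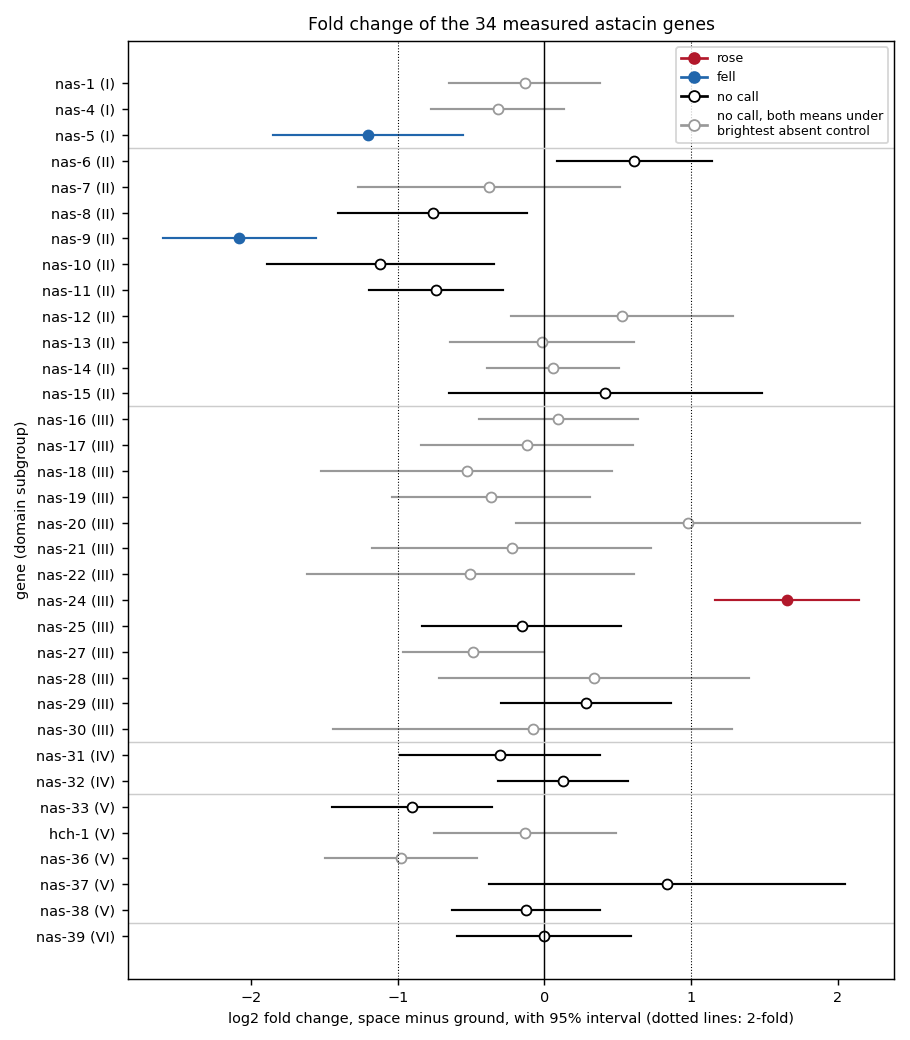
Log2 fold change of each of the 34 astacin genes, space minus ground, on the horizontal axis, with its 95% interval from limma, genes running down by domain subgroup (I to VI); filled points passed the test and grey points had both group means under the brightest control for an absent sequence. The points for nas-9 (-2.08) and nas-5 (-1.20) stand left of the 2-fold line and that of nas-24 (1.66) right of it.

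A gene was taken as above background where at least 1 group mean exceeded 86.7, the brightest reading of a control for an absent sequence. That held for 16 of the 34 astacin genes. The other 18 read 1.12 to 85.1 over all their arrays, and 6 of them, among them nas-1, nas-14 and hch-1, stayed under 30 on all 6 arrays. Probe sets differ in how strongly they bind, so intensities are compared within a probe set and not between genes.

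nas-9, a subgroup II gene with an ShK-type domain, had the largest change in the family. It read 442, 548 and 650 on space arrays, against 2102, 2617 and 2326 on ground arrays. The lowest ground reading was more than 3 times the highest space reading. Its mean was 547 ± 104 on space arrays and 2348 ± 258 on ground arrays (SD, n = 3 each), a log2 fold change of -2.08 ± 0.23 (SE; adjusted p = 0.00472, limma). A second probe set of nas-9 read 521, 449 and 481 on space arrays, against 1621, 1518 and 1941 on ground arrays. It gave the same direction at -1.77 ± 0.20 (adjusted p = 0.00562, limma). Both carry a mark of probes that can bind related sequences, so a contribution of another transcript was not tested. The summed intensity of the 34 members was 3609 to 4096 on space arrays and 6085 to 7097 on ground arrays. Without nas-9 it was 3167 to 3548 on space arrays and 3983 to 4480.5 on ground arrays. Such sums follow the brightest probe sets and do not describe the family as a whole. The brightest member after nas-9 was nas-11, with means of 801 on space arrays and 1347 on ground arrays.

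nas-5, of the short subgroup I, read 111, 218.7 and 148 on space arrays, against 462, 352 and 325 on ground arrays. The groups did not overlap, and each ground reading was well clear of the highest space reading. Its log2 fold change was -1.20 ± 0.28 (adjusted p = 0.0384, limma), and this call was lost when any single array was left out, with adjusted p values of 0.0505 to 0.118, and with a pseudocount of 1 (adjusted p = 0.0773). The other subgroup I genes measured were nas-1, at 1.62 to 9.66 over the 6 arrays, and nas-4. For nas-4 the readings were 52.7, 58.7 and 53.0 on space arrays, against 80.4, 72.9 and 64.02 on ground arrays. Here too the space arrays lay lower, within the range of the absent controls, and the log2 fold change of -0.32 ± 0.20 did not pass (adjusted p = 0.374, limma).

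nas-24, a subgroup III gene with EGF-like and CUB domains, was the member that rose. It read 205, 191 and 201 on space arrays, against 59.8, 58.5 and 40.3 on ground arrays. The space readings lay close together and far above the ground readings, which fell within the range of the absent controls. Its mean was 199 ± 7.31 on space arrays and 52.9 ± 10.9 on ground arrays (SD, n = 3 each), a log2 fold change of 1.66 ± 0.21 (adjusted p = 0.00651, limma). Because the ground level was so low the size depends on the pseudocount, being 1.91 with 1 and 1.17 with 64, and the gene passed with either. Leaving out any single array gave 1.52 to 1.73, past the threshold each time. With space replicate 1 and ground replicate 3 left out together, neither nas-24 nor nas-9 passed (adjusted p = 0.0583 each, limma), a setting in which 0 of the 22548 probe sets did, with 5176 at an unadjusted p under 0.05.

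**Figure D2:**
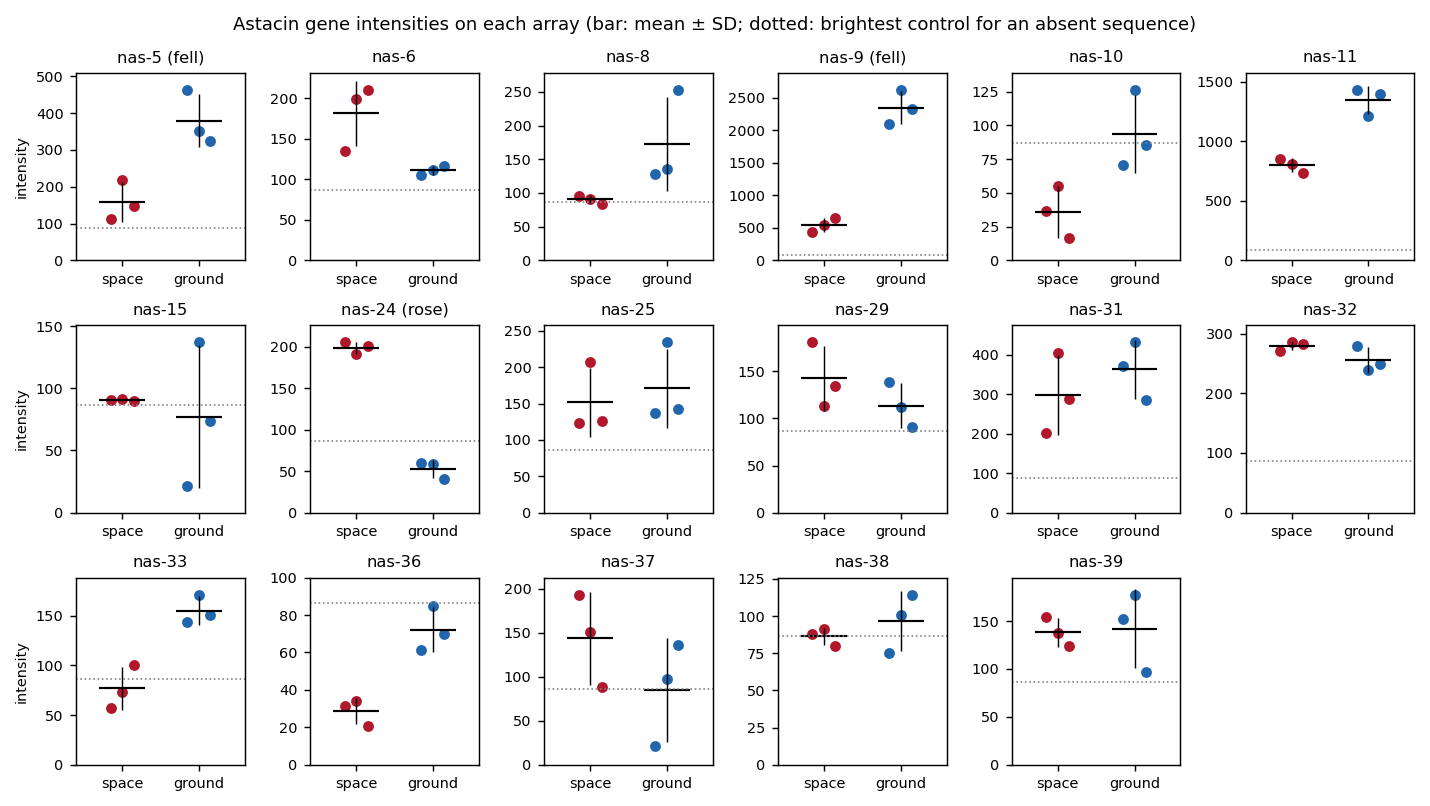
Deposited intensity (vertical axis, linear, a separate scale per gene) of the 16 astacin genes above background and of nas-36, on the 3 space arrays (left, red) and the 3 ground arrays (right, blue), with mean and SD; the dotted line is the brightest control for an absent sequence, 86.7. The groups do not overlap in nas-5, nas-6, nas-8, nas-9, nas-10, nas-11, nas-24, nas-33 and nas-36, and overlap in the other 8 genes.

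Other subgroup II genes were split in direction. nas-11 read 853, 813 and 735 on space arrays, against 1429, 1210 and 1402 on ground arrays. Every space array lay below every ground array, but at -0.74 ± 0.20 the change was short of 2-fold and just outside the threshold (adjusted p = 0.0583, limma). nas-10 read 36.7, 54.8 and 16.5 on space arrays, against 70.4, 126 and 85.2 on ground arrays. This change was larger, at -1.12 ± 0.33, and more variable, and did not pass (adjusted p = 0.0796, limma). nas-8 read 96.2, 91.2 and 84.3 on space arrays, against 128, 136 and 252 on ground arrays. The space arrays were again the lower ones, with 1 ground array far above the other ground arrays, and the log2 fold change was -0.76 ± 0.28 (adjusted p = 0.138, limma).

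nas-6, whose product is needed for a normally formed grinder in the pharynx, went the other way. It read 135, 199 and 210 on space arrays, against 105, 112 and 117 on ground arrays. The groups did not overlap, and the log2 fold change of 0.61 ± 0.23 did not pass (adjusted p = 0.144, limma). nas-15 read 90.4, 91.4 and 90.0 on space arrays and 21.3, 137 and 73.7 on ground arrays, so its groups overlapped because the ground arrays scattered. Of the 10 subgroup II genes, 1 fell, nas-9 (10%, against 2.42% of all genes), and 0 rose (against 5.34% of all genes). Their median log2 fold change was -0.20. The rest of them, nas-7, nas-12, nas-13 and nas-14, lay within the range of the absent controls and overlapped between groups.

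Among the subgroup V genes, the moulting proteases differed in sign without either passing. nas-36 read 31.6, 33.97 and 20.9 on space arrays, against 61.4, 85.1 and 69.7 on ground arrays. The groups were separate but both lay within the range of the absent controls. Its log2 fold change was -0.98 ± 0.22, which passed on adjusted p (0.0362, limma) and missed the 2-fold limit by a narrow margin. With a pseudocount of 1 it stood at -1.31 without passing (adjusted p = 0.0538, limma), and with 64 at -0.55. Under median centring it passed, at -1.02 (adjusted p = 0.0299, limma). nas-37 read 193, 150 and 88.3 on space arrays and 20.9, 97.3 and 137 on ground arrays. Its groups overlapped, and the estimate of 0.84 ± 0.53 (adjusted p = 0.385, limma) had a 95% interval of -0.38 to 2.05. The probe sets of nas-36 and nas-37 are both marked for shared probes. The difference between their changes was not tested.

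nas-33, also of subgroup V, read 57.5, 73.1 and 100.1 on space arrays, against 143, 171 and 150 on ground arrays. The groups did not overlap, and the log2 fold change of -0.90 ± 0.24 was just outside the threshold (adjusted p = 0.0534, limma). nas-38, which has been tied to the quiescent sleep-like state of moulting larvae, read 87.6, 91.2 and 80.1 on space arrays and 75.0, 101 and 114 on ground arrays, an overlap with a 95% interval of -0.63 to 0.38. The hatching enzyme gene hch-1 read 2.69, 11.8 and 12.7 on space arrays and 4.92, 14.9 and 14.3 on ground arrays. Those readings lie near the median of the absent controls, so hch-1 was not measured above background in either group.

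The tolloid-type gene nas-39 read 154, 137 and 124 on space arrays and 152, 178 and 96.6 on ground arrays. The group means were 138 ± 15.1 on space arrays and 142 ± 41.3 on ground arrays (SD, n = 3 each). The 95% interval of its log2 fold change ran from -0.60 to 0.59, so a change of 2-fold in either direction lay outside it. In subgroup IV, nas-31 read 202, 404 and 288 on space arrays and 373, 431 and 284 on ground arrays, overlapping. nas-32 read 272, 285 and 282 on space arrays and 280, 239 and 249 on ground arrays, with an interval of -0.32 to 0.57, and its second probe set stood at 0.10. Neither subgroup IV gene passed the test.

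Apart from nas-24, 12 subgroup III genes were measured and none passed the test. nas-25 read 123, 206.7 and 126 on space arrays and 137, 234 and 142 on ground arrays. Within each group replicate 2 was the high one. nas-29 read 181, 113 and 135 on space arrays and 139, 112 and 90.4 on ground arrays. Both overlapped between the groups, with intervals of -0.83 to 0.52 for nas-25 and -0.29 to 0.87 for nas-29.

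Most of the remaining subgroup III genes sit in a pair of groups of near or direct neighbours on chromosome V. In the RefSeq order nas-18, nas-17 and nas-19 follow each other directly and nas-20, nas-21 and nas-22 do so too. Readings of these genes stayed within the range of the absent controls on all arrays. nas-20 read 41.8, 54.7 and 42.9 on space arrays and 1.95, 61.5 and 6.58 on ground arrays. The ground arrays scattered widely and reached above the space arrays. Its log2 fold change of 0.98 ± 0.51 did not pass (adjusted p = 0.286, limma), and it passed at 1.63 (adjusted p = 0.0282, limma) when ground replicate 2 was left out. nas-17, nas-18, nas-19, nas-21 and nas-22 had log2 fold changes of -0.53 to -0.12, and none of these passed. Ground replicate 2 gave the highest reading in nas-17, nas-18, nas-19, nas-20 and nas-22.

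Of the 31 members that did not pass, 17 had a 95% interval that reached past 2-fold in a direction, so a change of that size was not excluded for them. The other 14 had intervals within 2-fold both ways. Of these, nas-25, nas-29, nas-31, nas-32, nas-38 and nas-39 were above background. The rest lay within the range of the absent controls, where the pseudocount narrows the interval, so a 2-fold change of the transcript was not excluded for them either. All 14 intervals hold for the deposited scaling and cover array-to-array spread alone. After scaling to the poly-A controls, nas-29 rose at 1.27 (adjusted p = 0.0039, limma) and nas-32 at 1.18 (adjusted p = 0.0042, limma). There nas-25, nas-31, nas-38 and nas-39 did not pass. Of the 18 members within the range of the absent controls, 15 overlapped between the groups. The others, nas-4, nas-27 and nas-36, were lower on every space array than on any ground array (16.7%, against 13.8% of all genes). That share of all genes is not a share of dim genes. It rests on 2362 of 17118 genes, and 1854 of the 2362 were among the 10364 genes above background. For the 18 members the pseudocount draws the fold change toward 0.

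**Figure D3:**
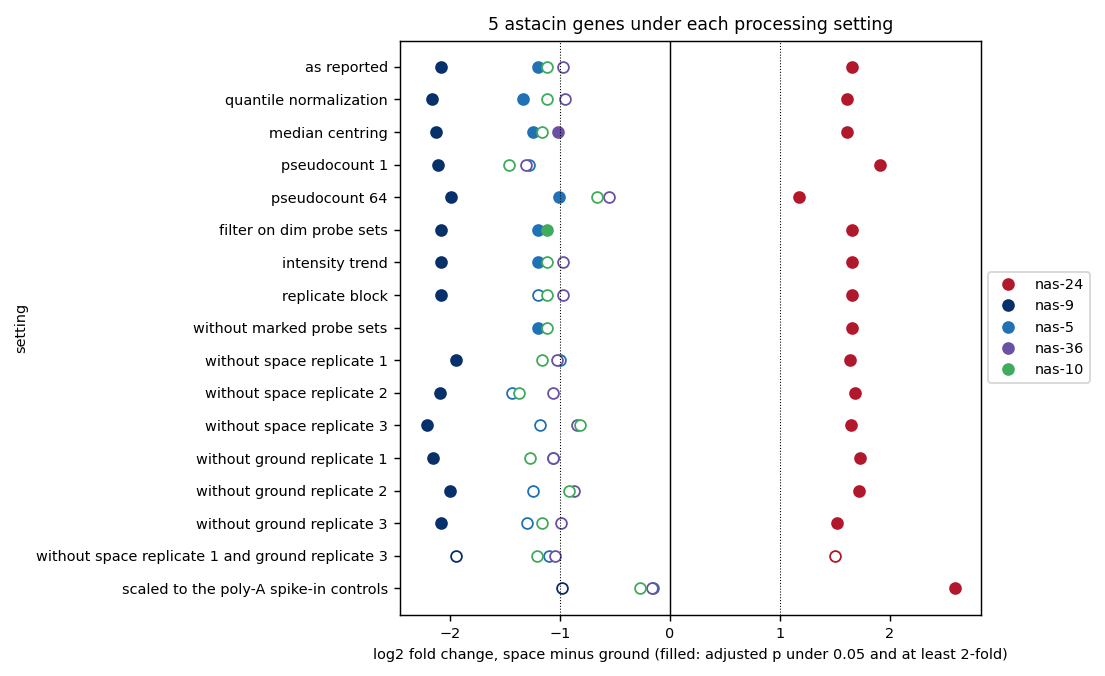
Log2 fold change, space minus ground (horizontal axis), of 5 astacin genes under each processing setting (rows); filled points passed the adjusted p and 2-fold limits. nas-9 stays between -2.21 and -1.94 and nas-24 between 1.17 and 1.91 in all rows but the last, whereas nas-5 lost its call when any array was left out; scaling to the poly-A controls moved every gene to the right.

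Scaling the arrays to the poly-A control transcripts, an alternative chosen after seeing the data, put the median log2 fold change of all probe sets at 0.87, against -0.01 on the deposited scaling, and shifted the members upward with it. Under that scaling nas-9 stood at -0.98 (adjusted p = 0.0227, limma), short of 2-fold, and nas-5 at -0.15 (adjusted p = 0.70, limma). nas-24 stood at 2.59 (adjusted p = 0.00029, limma), and 8 members rose and 0 fell. The 8 were nas-6, nas-12, nas-15, nas-20, nas-24, nas-29, nas-32 and nas-37, of which nas-12 and nas-20 lay within the range of the absent controls as deposited. The scaling multiplies each array by a single factor before the pseudocount is added, so by construction all genes shift the same way. The size of the shift depends on brightness: nas-9 went from -2.08 to -0.98 and the dim hch-1 from -0.13 to 0.31. A gene's place relative to that median was therefore not fully kept.

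Astacins named otherwise showed lower readings too, on their brightest probe sets. dpy-31, which encodes the procollagen C-proteinase, read 606, 758 and 623 on space arrays, against 1307, 1581 and 1399 on ground arrays. It fell, at -1.09 ± 0.21 (adjusted p = 0.0199, limma). Its other probe sets did not pass, at -0.66 (adjusted p = 0.252, limma) and -0.06 (adjusted p = 0.91, limma). toh-1, named as a tolloid homologue, read 327, 310 and 284 on space arrays, against 587, 611 and 476 on ground arrays. All space arrays lay below, and the log2 fold change was -0.83 ± 0.21 (adjusted p = 0.0464, limma), short of 2-fold, while its other probe sets stood at -0.31 and 0.12 with overlapping groups.

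The substrate of DPY-31, the cuticle collagen gene sqt-3, was read by a pair of probe sets that disagreed in size. The brighter, marked for shared probes, read 2293, 1713 and 2000 on space arrays and 3883, 2434 and 2677 on ground arrays, at -0.56 ± 0.25 (adjusted p = 0.219, limma). The dimmer, without that mark, read 40.9, 79.1 and 78.7 on space arrays, against 1426, 1731 and 2225 on ground arrays. This second probe set fell to the range of the absent controls on space arrays, at -4.48 ± 0.29 (adjusted p = 0.000886, limma). Which of them follows the sqt-3 transcript more closely was not tested. bli-4, which encodes the furin-like convertase that trims procollagens at the other end, was read by 9 probe sets between -0.65 and 1.23, of which 1 passed, upward.

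**Figure D4:**
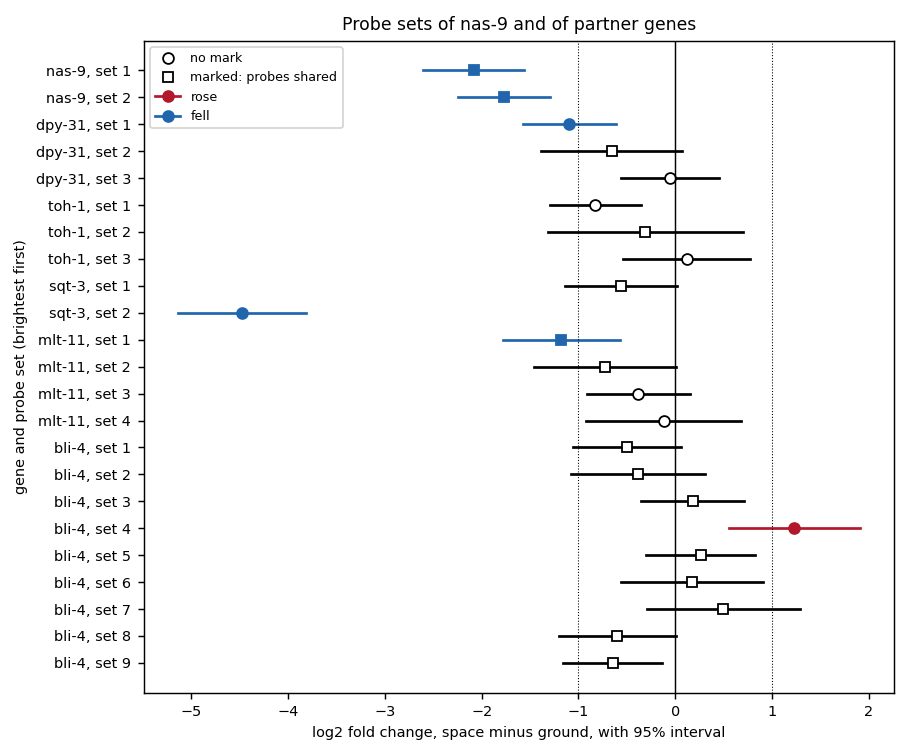
Log2 fold change, space minus ground (horizontal axis), with 95% interval, of every probe set of nas-9, dpy-31, toh-1, sqt-3, mlt-11 and bli-4, brightest first within each gene; squares carry a mark of shared probes and filled symbols passed the test. The probe sets of nas-9 lie together near -2, while those of sqt-3 lie at -0.56 and -4.48.

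In the list of moulting proteases, inhibitors and regulators, 5 of 38 genes fell (13.2%, against 2.42% of all genes) and 0 rose (against 5.34% of all genes), with a median log2 fold change of -0.42, against -0.02 over all genes. fbn-1, which encodes a fibrillin-like matrix protein, read 79.2, 113 and 118 on space arrays, against 323, 310.2 and 389 on ground arrays. It had the largest change of the list, at -1.59 ± 0.23 (adjusted p = 0.00842, limma), while its dimmer probe set stood at -0.22. mlt-8, named for a moulting defect, fell at -1.52 ± 0.27 (adjusted p = 0.0167, limma), with both group means within the range of the absent controls (12.4 on space arrays and 67.6 on ground arrays). mlt-11, which encodes a protein with Kunitz-type protease inhibitor domains, fell at -1.18 ± 0.26 (adjusted p = 0.0326, limma), while its 3 dimmer probe sets did not pass, at -0.72 to -0.12. blmp-1, which encodes a zinc finger transcription factor acting in larval development, fell by 1.59 on the log2 scale on its brighter probe set (adjusted p = 0.0137, limma) and stood at -0.13 on another. ptr-4, of the patched-related family, fell by 1.13 (adjusted p = 0.0410, limma). The space means of mlt-11 (38.9) and ptr-4 (35.6) lay within the range of the absent controls, against ground means of 106 and 94.3. nhr-23, the nuclear receptor gene that drives moulting gene expression, read 146, 187 and 137 on space arrays and 104, 274 and 318 on ground arrays, with no call (adjusted p = 0.592, limma). Of 15 procollagen processing and cuticle collagen genes 5 fell (33.3%, against 2.42% of all genes) and 0 rose, with a median of -0.56. The collagen genes among them were sqt-2, at -2.02 ± 0.24 (adjusted p = 0.00575, limma), rol-6, at -1.87 ± 0.42 (adjusted p = 0.0345, limma), and sqt-1, at -1.62 ± 0.25 (adjusted p = 0.0110, limma), each with a space mean within the range of the absent controls. The other two encode a prolyl hydroxylase subunit and a protein disulfide isomerase that modify procollagen. They were dpy-18, at -1.20 ± 0.22 (adjusted p = 0.0169, limma), and pdi-2, at -1.20 ± 0.29 (adjusted p = 0.0444, limma), and none of their dimmer probe sets passed, at -1.17 to -0.70.

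Of 41 genes for other secreted or membrane metalloproteases, 1 rose (2.44%, against 5.34% of all genes) and 3 fell (7.32%, against 2.42% of all genes), with a median of -0.10. adt-2, an ADAMTS-type protease gene that acts in cuticle structure and body size, read 606, 542 and 547 on space arrays, against 1423, 1544 and 952 on ground arrays. It fell, at -1.16 ± 0.24 (adjusted p = 0.0274, limma), while a dimmer probe set stood at -0.08. The matrix metalloprotease gene zmp-2 read 46.5, 35.6 and 58.0 on space arrays, against 104, 288 and 174 on ground arrays, and fell at -1.62 ± 0.35 (adjusted p = 0.0299, limma). Another zmp-2 probe set stood at -0.04. Its relative zmp-3 read 191, 168 and 209 on space arrays, against 83.5, 30.2 and 65.6 on ground arrays, and rose by 1.51 ± 0.31 (adjusted p = 0.0250, limma). The remaining gene that fell was adt-3, another of the ADAMTS type, at -1.05 ± 0.25 (adjusted p = 0.0415, limma), with a dimmer probe set at -0.99. On its brighter probe set the space mean, 36.6, lay within the range of the absent controls, and the ground mean was 91.7. acn-1, which encodes an angiotensin-converting enzyme-like protein, had no call on the brighter of its probe sets, which is marked for shared probes, at -0.83 ± 0.32 (adjusted p = 0.152, limma). Its other probe set, without that mark, read 34.9, 8.28 and 5.51 on space arrays, against 127, 188 and 125 on ground arrays, and fell at -2.42 ± 0.36 (adjusted p = 0.00904, limma). Of the metalloprotease inhibitor genes, timp-1 stood at 0.71 ± 0.19 (adjusted p = 0.0560, limma) with its space arrays above, and cri-2 at -0.14 with overlap.

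In the DBL-1 pathway, whose BMP-type ligand belongs to the family that tolloid proteases regulate in other animals, 1 of 14 genes fell (7.14%, against 2.42% of all genes) and 0 rose, with a median of -0.37. It was lon-1, which encodes a secreted protein that limits body length. lon-1 read 297, 213 and 301 on space arrays, against 1866, 1365 and 998 on ground arrays, at -2.29 ± 0.28 (adjusted p = 0.00635, limma). The ligand gene dbl-1 read 276, 281 and 239 on space arrays, against 608, 655 and 319 on ground arrays, without overlap and without a call at -0.89 ± 0.30 (adjusted p = 0.111, limma). Genes of the eggshell, the structure that HCH-1 opens, went the other way: 4 of 12 rose (33.3%, against 5.34% of all genes) and 0 fell, with a median of 0.85. They were cbd-1, which encodes a chitin-binding protein, at 2.29 ± 0.36 (adjusted p = 0.0110, limma), the chondroitin proteoglycan genes cpg-2, at 1.38 ± 0.20 (adjusted p = 0.00845, limma), and cpg-4, at 1.31 ± 0.22 (adjusted p = 0.0142, limma), and the chitin synthase gene chs-1, at 1.05 ± 0.24 (adjusted p = 0.0367, limma). The ground mean of chs-1, 62.8, lay within the range of the absent controls.

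Markers of tissues and stages were counted in the same way, against 5.34% of all genes that rose and 2.42% that fell. Of 15 epidermal markers 2 fell (13.3%) and 0 rose, with a median of -0.32 and a summed intensity of 3416 to 4457 on space arrays and 3839 to 5697 on ground arrays. Only 8 of the 15 had a group mean above the absent controls, and of the genes that fell, rol-6 was above them and grd-10 was not (highest array 84.2). The lists share members: rol-6 was also counted among the procollagen and collagen genes and nhr-23 among the moulting genes. bli-3 and bli-4 were counted in both of those lists. Of 18 pharynx markers, 15 of them above the absent controls, 0 rose and 0 fell by limma, 4 being lower and 0 higher at an unadjusted p under 0.05, with a median of -0.29 and sums of 16576 to 19813 on space arrays and 18556 to 21601 on ground arrays. Of 18 intestinal markers, all above the absent controls, 2 rose (11.1%) and 1 fell (5.56%), with a median of 0.19 and sums of 63268 to 75562 on space arrays and 51451 to 70971 on ground arrays. Of 20 germline markers, 19 of them above the absent controls, 11 rose (55.0%) and 0 fell, with a median of 1.11 and sums of 16430.5 to 17299 on space arrays and 8360 to 9399 on ground arrays. No marker of these 4 lists was at 0. No test linked any of these lists to the astacin values.

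Of the remaining marker lists, 2 of 13 sperm genes rose (15.4%) and 0 fell, with 10 of the 13 above the absent controls and the riser spe-11 not among them (median log2 fold change 0.46; summed intensity 4281 to 4884 on space arrays and 2655 to 3452 on ground arrays). In the embryo list 2 of 12 rose (16.7%) and 0 fell, with 4 of the 12 above the absent controls (median 0.21; sums of 2573 to 2770 on space arrays and 1586 to 1717 on ground arrays). In the male list 1 of 9 rose (11.1%) and 0 fell, with 1 of the 9 above the absent controls. The gene that rose, pkd-2, was not that gene, and its highest array read 84.4 (list median -0.46; sums of 347 to 424 on space arrays and 435 to 546 on ground arrays). In the list for the excretory cell and glia 0 of 10 rose or fell by limma, with 1 higher and 1 lower at an unadjusted p under 0.05 and 7 of the 10 above the absent controls (median -0.35; sums of 4401 to 4584 on space arrays and 3775 to 4540 on ground arrays).

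**Figure D5:**
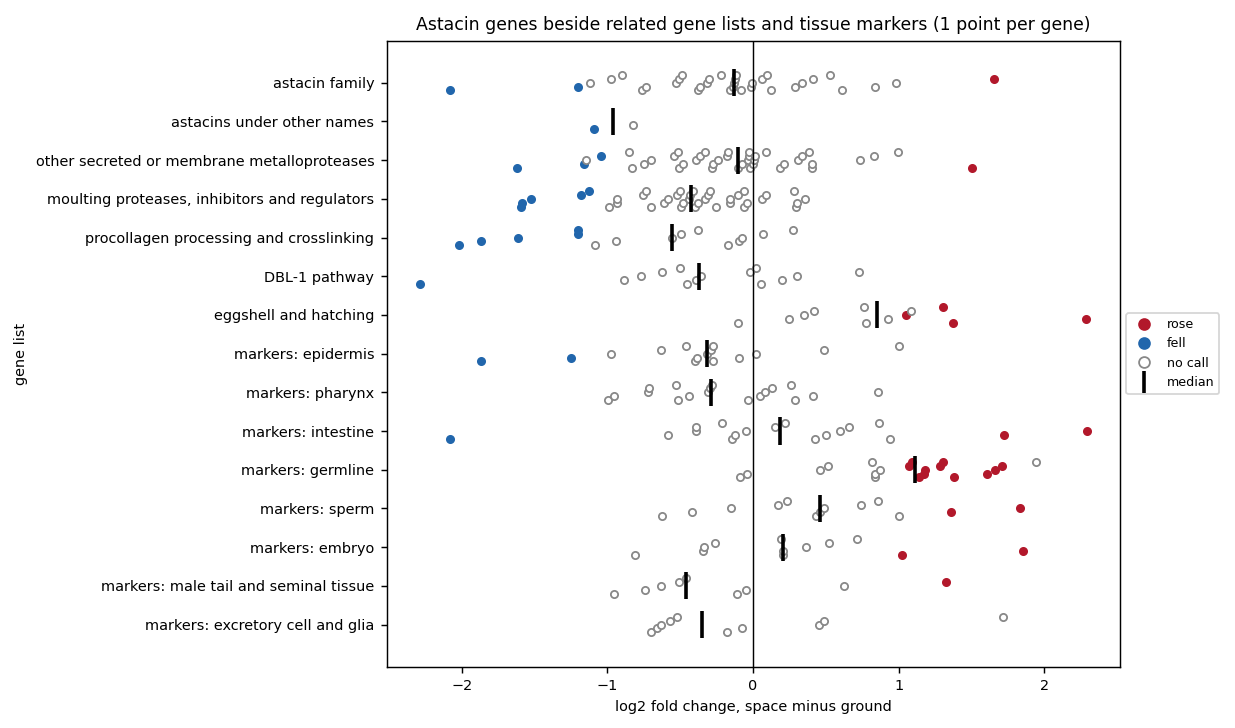
Log2 fold change, space minus ground (horizontal axis), of each astacin gene and of each gene in the related and marker lists (rows), 1 point per gene, red where it rose, blue where it fell and open where it did not pass, with the list's median as a bar. The astacin median (-0.13) lies close to 0, the moulting (-0.42) and procollagen (-0.56) medians to its left and the germline (1.11) and eggshell (0.85) medians to its right.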

How the data were processed

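RNA of 3 space and 3 ground control arrays was labelled with biotin for 1-colour Affymetrix arrays, per the labels' protocols. The authors deposited intensities on a linear scale, with the summary method for probes not given in the sources used. Each array had a 2%-trimmed mean of about 500 (500.1 to 500.2), so the arrays were already scaled. Groups and replicate numbers came from the sample titles. The array held 22625 probe sets, and its 77 control sets stayed out of the tests. Intensities were put on the scale log2(intensity + 16), keeping the deposited scaling, and fitted by group with limma 3.58.1 (lmFit, eBayes; R 4.3.3). limma was tested on simulated data. No filter on dim values was used. Symbols came from the platform annotation, in which 20766 tested probe sets had 1 symbol, 887 several and 895 none, and RefSeq assembly WBcel235 gave gene order; all 34 members matched it. Figures used matplotlib 3.10.9 in Python 3.11.15.

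Named with values were members that passed the test or had a group mean above the brightest absent control, and in related lists up to 4 members past the threshold with the largest changes and a few set partners; others were chosen after their values were seen. The genes and lists were chosen with earlier results of these data known. Results were recomputed with quantile or median scaling, with 1 or 64 as pseudocount, after filtering dim probe sets, with an intensity trend or a replicate block, leaving out marked probe sets or single arrays, with other probe sets, with a 1.5-fold limit and, chosen after seeing the data, scaling to spike-ins and leaving out space replicate 1 with ground replicate 3.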

Additional observations from a re-analysis of the deposited data

How the results depend on the processing

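Results were recomputed under 17 alternative settings. Over all of these but the 1.5-fold limit, 258 of 298 values of 19 astacin genes kept their direction and their side of the limits. The 298 include the second probe sets of nas-9 and nas-32. The filter on dim probe sets, the intensity trend and the replicate block leave a log2 fold change as it was, so direction could not change there. Only nas-24, nas-9 and nas-5 had a call to keep, and for the other genes keeping their side meant staying without a call. nas-24 lost its call in 1 alternative and nas-9 in 2. nas-24 entered the filter on dim probe sets through its space arrays alone, so its call under that filter is no support. Without both space replicate 1 and ground replicate 3, the limma fit gave 0 calls anywhere on the array (5176 at an unadjusted p under 0.05), so 0 members rose and 0 fell, 9 having an unadjusted p under 0.05 (nas-24 at 1.496, nas-9 at -1.95, adjusted p = 0.0583 each). The count of fallers dropped to 1 with a pseudocount of 1, with a replicate block, without marked probe sets (where nas-9 had no probe set left) and without any single array, and to 0 after scaling to the poly-A controls, where 8 rose. It was 3 under median centring, the filter on dim probe sets and the 1.5-fold limit, which is within 1.5 times the reported 2. The third under median centring and under the 1.5-fold limit was nas-36. The third under the filter was nas-10, which entered through its ground arrays alone, so its adjusted p of 0.0276 there is no support. Leaving out 1 array gave 1 to 2 members that rose, 1 that fell, and 588 to 1201 probe sets called, against 1648 with all arrays; the lowest counts came without space replicate 3 (588) and space replicate 2 (604), then space replicate 1 (879) and ground replicate 2 (928). All calls numbered 1027 with a pseudocount of 1, 905 without marked probe sets and 9166 after scaling to the poly-A controls. Rises made up 70.5% of calls as reported, 58.8% after quantile normalization and 99.4% after scaling to the poly-A controls.

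Estimates that changed sign had no call as reported. nas-32 stood at -0.051 after quantile normalization and nas-39 at 0.00013 with a pseudocount of 1. Leaving out arrays gave -0.30 to 0.16 for nas-39, -0.14 to 0.88 for nas-15, -0.38 to 0.074 for nas-25, -0.31 to 0.15 for hch-1 and -0.014 to 0.42 for nas-29. After scaling to the poly-A controls, nas-8 (0.23), nas-11 (0.37), nas-25 (0.86), nas-31 (0.76), nas-33 (0.075), hch-1 (0.31), nas-38 (0.83) and nas-39 (0.996) had turned positive, as the median of all probe sets had. None of these was among the members that rose under that scaling.

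Samples with the same replicate number did not deviate together in every pair (correlation of deviations 0.39, 0.06 and 0.17 for numbers 1 to 3). Pairs of unlike number gave -0.28 to 0.16. These values do not settle whether the number marks a pairing, and it was not treated as one in the reported fit. With the replicate block 1741 probe sets were called, and nas-5 had an adjusted p of 0.0609. The brightness of a probe set limits what can be seen, and 18 members had both group means within the range of the absent controls. The causes of these shifts were not tested.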
